A study of Glycine max with 24 samples.

Results

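A set of loci of the soybean FLOWERING LOCUS T (FT) family was followed here through cotyledon and leaf life. Its members were all transcripts of 6 loci, namely Glyma16g26660 (FT2a), Glyma16g26690 (FT2b), Glyma16g04830 (FT5a), Glyma19g28400 (FT5b), Glyma16g04840 (FT3a) and Glyma19g28390 (FT3b). Each locus had 1 transcript model, so 6 of the 73320 transcripts, or 6 of the 54175 loci, were described. Below, the family and FT reads mean these 6 loci. Further loci, some placed as FT type from general knowledge, are described apart. The samples were wild-type Williams-82 plants grown under equal periods of light and dark, which is a short day for soybean, and harvested in the early afternoon, and no agent or allele set any group apart. Cotyledons were taken 4 days (C-I), 15 days (C-II) and 27 days (C-III) after planting, and 1 pair of cotyledons made a replicate. Leaf samples were the trifoliate at the fourth node, taken at the V3 stage (L-I) and, per the labels, 2, 4, 6 and 7 weeks later (L-II to L-V), each from a different plant. The study's methods give these intervals in days, and the days do not match the weeks. Every stage had 3 biological replicates, 9 cotyledon and 15 leaf libraries in all. The C-I seedlings grew on culture medium in closed boxes and all later samples in soil mix, so for cotyledons this difference and the step from C-I cannot be told apart.

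FT proteins belong to the PEBP (phosphatidylethanolamine-binding protein) family and are the mobile flowering signal of plants, also called florigen. In Arabidopsis, FT is made in the phloem of leaves under inductive day length, moves to the shoot apex, and there acts with the bZIP factor FD to switch on the genes that turn the apex into an inflorescence. Soybean has several copies, of which FT2a (the product of the maturity locus E9) and FT5a are the best known promoters of flowering under short days. Soybean cotyledons are seed storage organs that turn green after emergence, photosynthesise, and then senesce well before the leaves do.

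No genome or transcript sequence of the build used for counting was at hand, so no sequence and no coordinate is given. In the RefSeq annotation of Glycine_max_v4.0, a later build, the 6 genes of these names sit in 3 tandem groups. FT2A and FT2B lay on chromosome 16 with 1 protein-coding gene between them. FT5A and FT3A lay on chromosome 16 with 2 pseudogenes and 0 protein-coding genes between them, and FT3B and FT5B lay side by side on chromosome 19. None of the locus IDs of the expression tables appeared in that annotation, so the order by locus number is used below. Only reads that hit a single transcript were kept in the tables. Reads from stretches that copies share were therefore lost, and levels of different members, which also differ in length, were not compared with each other.

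The libraries held 2163050 to 20839594 counted reads in cotyledon and 1852184 to 6887154 in leaf. Values are normalized counts, meaning reads divided by the authors' size factor of the library, and 3 reads in a library, taken as the limit of detection, correspond to between 0.833 and 8.96 normalized counts in the cotyledon libraries and between 1.71 and 8.52 in those of leaf. The ribulose bisphosphate carboxylase (rubisco) small chain transcript Glyma13g07610.1, an abundant marker of green tissue, fell from 5825 to 10356 normalized counts at C-I to 212 to 237 at C-III. In leaf it fell from 6739 to 7331 at L-I to 387 to 1936 at L-V. Replicate 3 of L-II stood apart with 555 normalized counts of this transcript, against 6445 and 4201 in the other L-II libraries. The 5 transcripts of a seed storage protein list summed to 233 to 371 at C-I and to at most 2.59 in any leaf library, and the 6 transcripts of a flower and shoot apex list summed to at most 3.95 normalized counts in every library. The loci of these lists were placed from general knowledge.

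In cotyledon, FT transcripts were seen mainly at the middle stage. FT2a, FT5a and FT2b rose from C-I to C-II and fell from C-II to C-III, and FT3a and FT3b had no read in any of the 9 libraries. A call here needed an adjusted p below 0.05 over all tested transcripts and a log2 fold change above 1.5 in size. From C-I to C-II all 3 tested members passed, where 25.4% of the 53357 tested transcripts were called. From C-II to C-III the same 3 passed in the other direction, where 8.58% of all tested transcripts were called. FT2b and FT5a reached the filter of 10 reads in a stage through C-II alone, so that a difference of C-II from the other stages was part of their being tested. These counts, and the cotyledon p-values of FT2b and FT5a below, are a description only.

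FT2a, a promoter of flowering, had 0, 1 and 0 reads in the 3 C-I libraries. It had 55, 545 and 141 reads at C-II, which are 149.7, 224 and 187 normalized counts. It had 6, 47 and 11 reads at C-III, or 7.11, 13.1 and 17.5 normalized counts. The stages did not overlap, and C-III lay between C-I and C-II. The C-II mean was 187 ± 37.0 (SD, n = 3) and the C-III mean 12.6 ± 5.24 (SD, n = 3). FT2a was at least 43.8-fold higher at C-II than at C-I, taking 3 reads per C-I library as the limit (log2 fold change 7.23, SE 0.42, adjusted p = 5.93e-08). It then fell by 3.85 on the log2 scale to C-III (14.9-fold, adjusted p = 4.87e-05). Between C-I and C-III, where 30.8% of all tested transcripts were called, FT2a was the only tested member that passed (3.38, SE 0.42, adjusted p = 2.52e-05), as at least a 2.95-fold rise.

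FT5a, the other well known promoter, had no read at C-I and 7, 112 and 49 reads at C-II. As normalized counts the C-II values were 19.0, 46.0 and 65.1. At C-III it had 0, 1 and 0 reads. FT5a was thus above the limit of detection at C-II only, with no overlap between C-II and either other stage. FT5a was at least 10.2-fold higher at C-II than at C-I (log2 fold change 5.31, SE 0.54, adjusted p = 5.9e-06) and at least 14.2-fold lower at C-III than at C-II (-5.19, SE 0.54, adjusted p = 3.06e-05). Since FT5a was tested through C-II alone, these p-values are descriptive.

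FT2b, the tandem neighbour of FT2a, had 1, 14 and 4 reads at C-II and none at C-I and C-III. Of its 19 cotyledon reads 14 came from C-II replicate 2, the deepest library of that stage, and as normalized counts the 3 C-II values were 2.72, 5.75 and 5.31. FT2b passed in both steps (2.44 and -2.44, SE 0.49, adjusted p = 0.00154 and 0.00428), but the C-II mean of 4.59 was close to the limit of detection, and without C-II replicate 2 it no longer reached the filter and was not tested. FT5b had 1 read in the 9 libraries. For FT3a and FT3b, 0 of 79171097 cotyledon reads allows up to 0.0379 per 1e+06 counted reads over the organ, for counting error only.

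**Figure D1:**
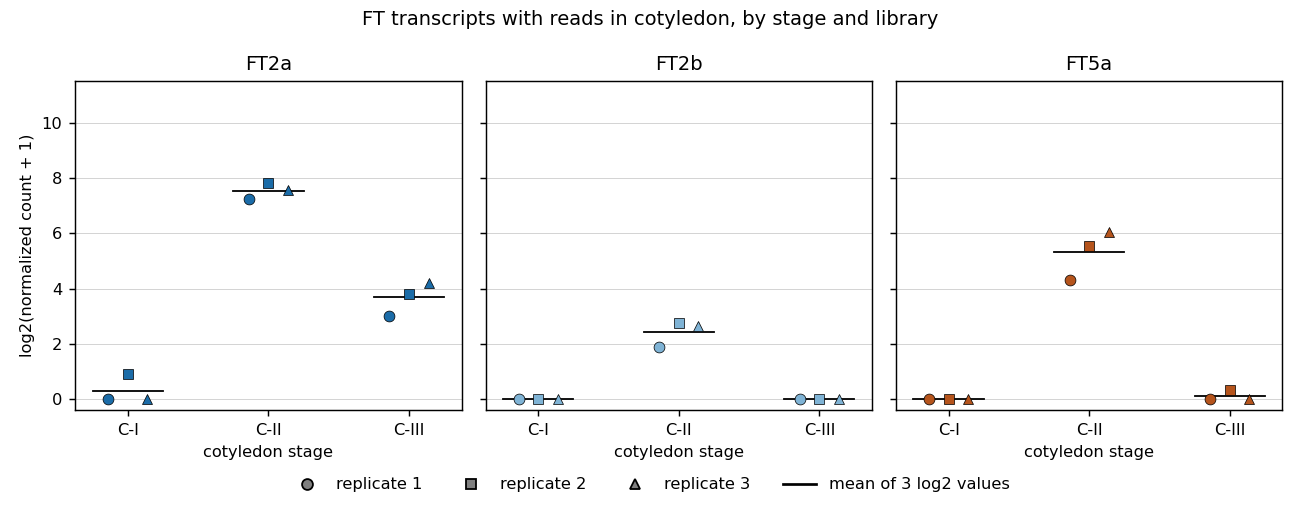
FT2a, FT2b and FT5a in the 9 cotyledon libraries, as log2(normalized count + 1) by stage. Symbols are replicates and bars are means of 3 log2 values. C-II lies above both other stages for all 3 transcripts, and FT2a stays above its C-I values at C-III.

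In leaf, all 6 members were measured and each passed in at least 1 pair of stages, as did 41.4% of all tested leaf transcripts. FT2a, FT5a, FT2b and FT5b rose at the step out of the youngest stage. FT3a and FT3b rose later, from L-II to L-III and again from L-III to L-IV. From L-III to L-V FT5a and FT2b fell while FT3a, FT3b and FT5b rose, and FT2a did not pass. The members thus fell into 3 courses, which are taken in turn. Comparisons that have a stage in common share its libraries and are not independent.

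FT2a had 4, 53 and 12 reads at L-I, or 11.4, 55.4 and 11.8 normalized counts. At L-II it had 795, 573 and 290.1 normalized counts, and at L-III 774, 427 and 818. At L-IV the values were 585, 824 and 670.2, and at L-V 820.5, 525 and 317. Every library from L-II on lay above every L-I library, and the 4 later stages overlapped each other. FT2a rose 21.1-fold from L-I to L-II (log2 fold change 4.62, SE 0.53, adjusted p = 2.09e-05), and without L-I replicate 2, which held most of the L-I reads, 47.6-fold (5.34, adjusted p = 2.26e-06). It did not pass in any later step (0.34, 0.09 and -0.41 on the log2 scale, SE 0.53 each, adjusted p = 0.845, 0.996 and 0.887). The order of stage means was L-IV (693 ± 121), L-III (673 ± 214), L-V (554 ± 253), L-II (553 ± 253) and L-I (26.2 ± 25.3, SD, n = 3 each), and only the last neighbours in this order, L-II and L-I, passed the test against each other.

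FT5a had its highest mean at L-II, where it overlapped L-III, and fell from L-III to L-V. It had 5, 236 and 20 reads at L-I, or 14.2, 247 and 19.7 normalized counts, so that L-I replicate 2 lay far above the other L-I libraries. At L-II it had 1618, 1265 and 727 normalized counts, and at L-III 1131, 657 and 1079. At L-IV it had 368, 429 and 556, and at L-V 67.7, 216 and 127. From L-III to L-V each stage lay wholly below the one before. FT5a rose from L-I to L-II by 4.74 on the log2 scale (SE 0.75, adjusted p = 0.000357), and the ratio of the stage means was 12.9. Without L-I replicate 2 the change was 6.01 and the ratio 70.9, and without L-I replicate 1 they were 4.00 and 9.04. The single later steps did not pass (-0.30, -1.06 and -1.85, SE 0.75 each, adjusted p = 0.918, 0.631 and 0.433). Over both steps from L-III to L-V FT5a fell 6.99-fold (-2.91, SE 0.75, adjusted p = 0.0282), a call that was lost without L-III replicate 1 (adjusted p = 0.104), L-III replicate 3 (0.102) or L-V replicate 1 (0.136). From L-I to L-V it did not pass (1.54, SE 0.75, adjusted p = 0.117), whereas without L-I replicate 2 it did (2.80, adjusted p = 0.000228). No neighbours in the order of means, L-II (1203), L-III (956), L-IV (451), L-V (137) and L-I (93.5), passed the test against each other, although L-III, L-IV and L-V did not overlap.

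FT2b, which promotes flowering in soybean as well, rose and fell within the leaf series. It had 0, 1 and 0 reads at L-I and 88.7, 40.6 and 42.0 normalized counts at L-II. It was highest at L-III, with 172, 85.5 and 195 normalized counts. At L-IV it had 34.4, 33.3 and 67.8, and at L-V 1.78, 8.22 and 11.7 normalized counts, which are 2, 8 and 16 reads. L-III lay wholly above L-IV, and L-IV wholly above L-V. FT2b was at least 11.7-fold higher at L-II than at L-I (log2 fold change 5.42, SE 0.55, adjusted p = 7.5e-06). The steps from L-II to L-III (1.40, SE 0.55, adjusted p = 0.242), L-III to L-IV (-1.71, SE 0.55, adjusted p = 0.131) and L-IV to L-V (-2.67, SE 0.55, adjusted p = 0.107) did not pass one by one. From L-III to L-V FT2b fell 20.9-fold (-4.38, SE 0.55, adjusted p = 0.000345), the largest fall of any member in that comparison. L-V was still above L-I (2.44, SE 0.55, adjusted p = 0.00236), as at least a 1.49-fold difference. Without L-V replicate 1 these values were -3.73 and 3.09. Without that library the step from L-III to L-IV passed (-1.71, adjusted p = 0.0493), and without L-V replicate 3 the step from L-IV to L-V did (-3.11, adjusted p = 0.0284).

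**Figure D2:**
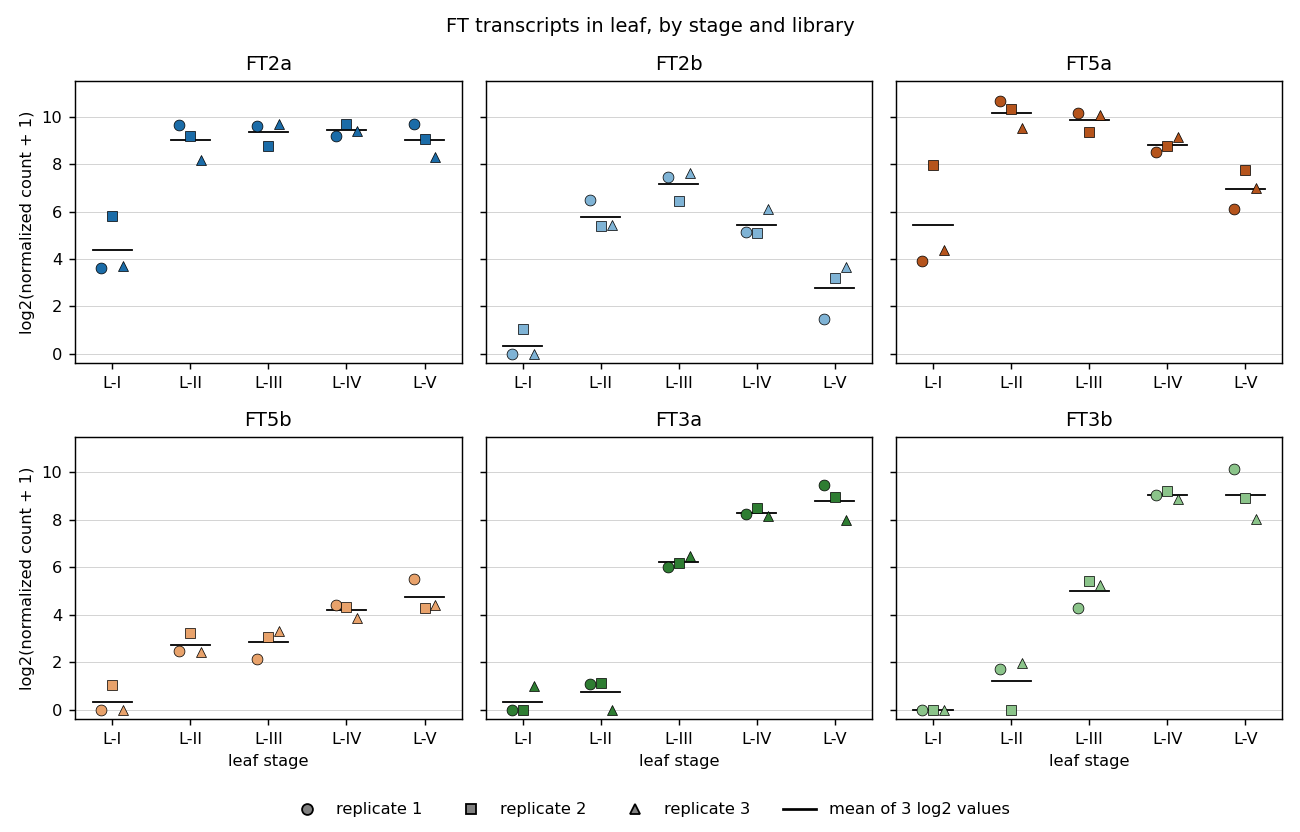
The 6 FT transcripts in the 15 leaf libraries, as log2(normalized count + 1) by stage. Symbols are replicates and bars are means of 3 log2 values. FT2a libraries of L-II to L-V overlap, FT5a and FT2b are highest at L-II and L-III, and FT3a, FT3b and FT5b are highest at L-IV and L-V.

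FT3a and FT3b were near 0 at L-I and L-II, and their later rises were among the family's strongest changes. FT3a had 1 read in the 3 L-I libraries together and 2 reads at L-II. At L-III it had 75, 126 and 68 reads, or 63.4, 71.8 and 87.9 normalized counts. At L-IV it had 299.5, 362 and 284 normalized counts, and at L-V 705, 492 and 253. The libraries of L-III lay above every earlier library and below every later one, while L-IV and L-V overlapped. FT3a was at least 24.4-fold higher at L-III than at L-II (log2 fold change 5.48, SE 0.42, adjusted p = 1.08e-05). It rose a further 4.24-fold from L-III to L-IV (2.07, SE 0.42, adjusted p = 0.0138) and did not pass from L-IV to L-V (0.50, SE 0.42, adjusted p = 0.771). The call from L-III to L-IV was lost without L-III replicate 1 (1.97, adjusted p = 0.0743) or without L-IV replicate 2 (1.97, adjusted p = 0.0902), and the rise from L-III to L-V (2.58, SE 0.42, adjusted p = 0.00178) was kept in every fit with 1 library left out.

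FT3b had no read at L-I and 2, 0 and 4 reads at L-II. At L-III it had 22, 73 and 29 reads, or 18.6, 41.6 and 37.5 normalized counts. At L-IV it had 528, 597 and 471 normalized counts, and at L-V 1126, 488 and 259.9. The L-IV libraries were close together and the L-V libraries spread on both sides of them. The L-II mean of 1.73 was below the limit of detection there, 3.05 normalized counts. Against that limit FT3b was at least 10.7-fold higher at L-III than at L-II (log2 fold change 3.76, SE 0.53, adjusted p = 0.00186, and 3.15 without L-II replicate 2). It rose 16.3-fold from L-III to L-IV (4.06, SE 0.53, adjusted p = 0.00102). It did not pass from L-IV to L-V, where the mean was higher at L-V (625 ± 449 against 532 ± 63.5, SD, n = 3 each) but the log2 change was -0.02 (SE 0.53). At the step from L-I to L-II it did not pass (1.23, SE 0.53, adjusted p = 0.126), but it did without L-II replicate 2, the library with no read (1.84, adjusted p = 0.0214), and with a pseudocount of 0.1 (3.16, adjusted p = 0.0419).

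The ratio of FT3b to FT3a reads does not depend on how libraries are scaled. It was 0.293, 0.579 and 0.426 in the 3 L-III libraries and 1.76, 1.65 and 1.66 in the L-IV libraries, without overlap. At L-V it was 1.60, 0.992 and 1.03. The rise of FT3b from L-III to L-IV was thus the steeper of the pair in the counts themselves. The mean log2 ratio was higher at L-IV by 2.02, and an exact two-sided permutation test over libraries gave p = 0.10, the smallest that 3 against 3 allows.

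FT5b, the tandem neighbour of FT3b, was the member with the fewest leaf reads, 203 in all. It had 1 read at L-I and 4, 7 and 6 reads at L-II. At L-III it had 4, 13 and 7 reads, at L-IV 25, 26 and 14, and at L-V 50, 18 and 28. As normalized counts, L-IV gave 20.02, 19.2 and 13.8, and L-V gave 44.5, 18.5 and 20.5, so L-IV and L-V overlapped and both lay above all earlier libraries. FT5b was called from L-I to L-II (2.36, SE 0.49, adjusted p = 0.00309), as at least a 1.18-fold rise above the limit of detection. It rose 4.21-fold from L-III to L-V (1.90, SE 0.49, adjusted p = 0.0292), a call lost without L-III replicate 1 (1.54, adjusted p = 0.139) or L-V replicate 1 (1.51, adjusted p = 0.159) and with a pseudocount of 0.1 or 5. Over the whole series it was at least 5.71-fold higher at L-V than at L-I (4.40, SE 0.49, adjusted p = 4.08e-06).

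Counted by step, 4 of the 6 members rose from L-I to L-II, where 14.7% of the 50940 tested leaf transcripts were called and 5.02% rose. From L-II to L-III 2 rose, FT3a and FT3b, where 1.92% of all tested transcripts were called and 0.664% rose. The same 2 rose from L-III to L-IV, where 2.54% of all were called and 1.78% rose. From L-IV to L-V 0 of 6 passed in limma and 0 in limma-voom on the reads, where 0.0491% of all were called, and 2 members, FT2b and FT5a, had an unadjusted p below 0.05 there (0.000199 and 0.0253). From L-III to L-V 3 rose and 2 fell, against 5.9% called among all. From L-I to L-V 5 of 6 were called as higher at L-V, and FT5a was the exception. Of all tested transcripts 31.1% were called there and 11.9% rose. With a pseudocount of 5 in place of 1 the FT2b call from L-I to L-V (1.10), the FT5b call from L-I to L-II (0.99) and both FT2b calls in cotyledon (0.93 and -0.93) went below the fold limit, and with 0.1 FT3a did not pass from L-III to L-IV or L-V (adjusted p = 0.394 and 0.140). The median change over the 6 members from L-I to L-V was 4.52 on the log2 scale, beside -0.0040 over all tested transcripts.

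**Figure D3:**
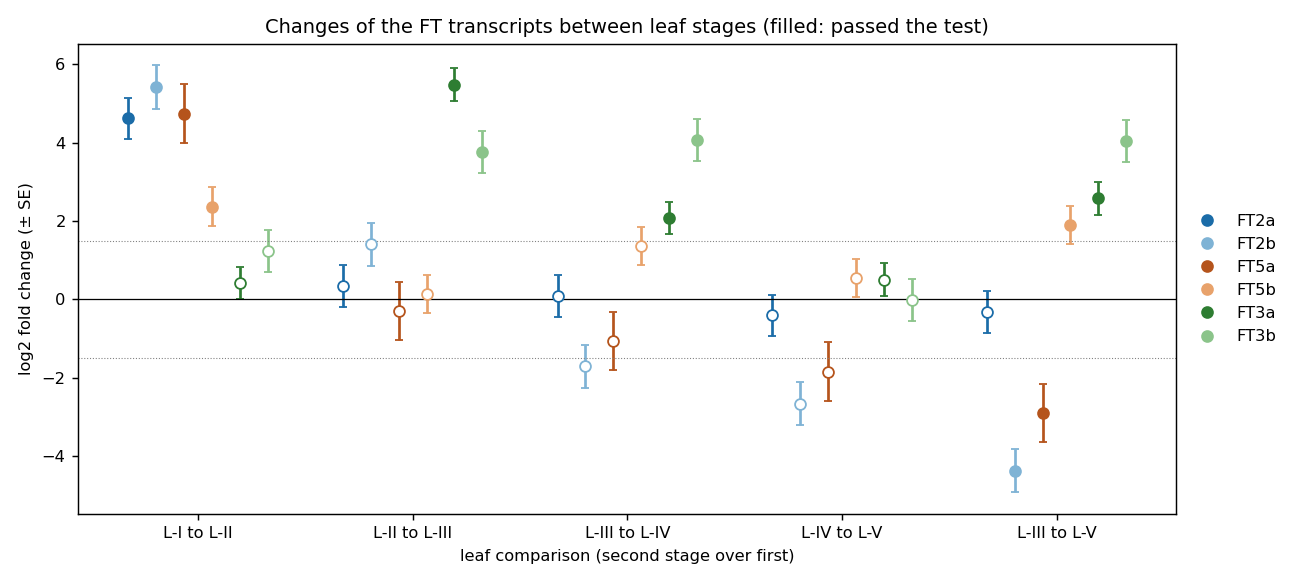
Log2 fold change (second stage over first, ± SE) of each FT transcript in 5 leaf comparisons. Filled points passed the test and dotted lines mark 1.5 in either direction. FT2a, FT2b, FT5a and FT5b are filled from L-I to L-II, FT3a and FT3b in the next 2 steps, and from L-III to L-V FT2b and FT5a lie below 0 with FT3a, FT3b and FT5b above.

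The summed level of the 6 FT loci rose out of the youngest leaf stage, and from L-II on its make-up moved between stages while its ranges overlapped. The 6 members together had 25.6, 304 and 32.6 normalized counts in the L-I libraries, all below the later ones. They had between 1067 and 2510 normalized counts in L-II libraries and between 1291 and 2227 in L-III libraries. The range was from 1836 up to 2265 for L-IV and from 988 up to 2765 for L-V, so that the ranges of L-II to L-V overlap. FT5a made up between 55.6 and 81.1% of FT reads in the L-I libraries, which held 9 to 291 such reads. It made up between 64.5 and 68.2% in L-II libraries and between 48.5 and 52.3% in L-III libraries. Its share was between 18.9 and 27.0% in L-IV and between 2.45 and 12.8% in L-V libraries. FT3b went the other way, from at most 0.276% at L-II to 22.8 to 28.8% at L-IV and 26.3 to 40.7% at L-V. FT2a took 27.2 to 36.7% of FT reads in each of the 12 libraries from L-II on. These shares are of reads and not of molecules, since they were not corrected for transcript length, and only their change between stages is read.

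**Figure D4:**
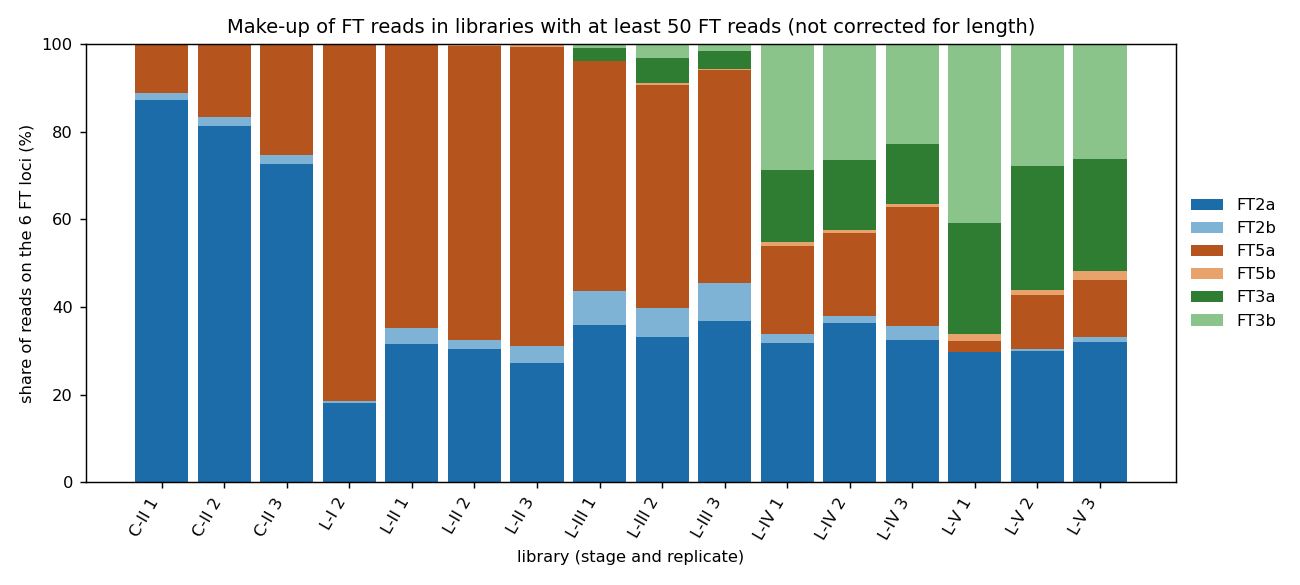
Share of reads on the 6 FT loci taken by each locus, in percent, for each library with at least 50 FT reads. L-I is shown by replicate 2 alone. The FT5a share is lower at each later stage from L-II on, and FT3a and FT3b together make up 36.6 to 66.2% of the bars from L-IV on.

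The balance of FT2a and FT5a, taken within each library and so free of scaling, moved with leaf stage, and the C-II values lay within the range of L-V. FT2a held 88.7, 83.0 and 74.2% of the FT2a and FT5a reads in the C-II libraries, with exact binomial 95% intervals of 78.1 to 95.3%, 79.9 to 85.8% and 67.4 to 80.3%. At C-III it held 6 of 6, 47 of 48 and 11 of 11 such reads. In leaf the share was higher at each later stage from L-II on, without overlap, with 28.5 and 32.9% as the lowest and highest L-II values, 39.4 and 43.1% for L-III, 54.6 and 65.8% for L-IV, and 70.9 and 92.4% for L-V. The L-I libraries gave 44.4, 18.3 and 37.5%, from 9, 289 and 32 such reads. The C-II libraries thus overlapped the leaf libraries of L-V only. Tissue, sequencing instrument and growth conditions cannot be told apart in this comparison, and the intervals cover counting error only.

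Changes were also tested between the organs, as the leaf step from L-I to L-II less the cotyledon step from C-I to C-II, and as L-I to L-V less C-I to C-III. The early contrast of FT2a passed (4.62 in leaf against 7.23 in cotyledon, difference -2.61, SE 0.69, adjusted p = 0.0125), where 13.3% of the 48298 transcripts tested in both organs were called. FT2a was at the limit of detection at C-I, so its cotyledon rise is only a bound (at least 43.8-fold). The ratio of stage means in leaf was 21.1, and 47.6 without L-I replicate 2, so whether the leaf rise was the smaller cannot be read. Without L-I replicate 2 the difference was -1.89 (adjusted p = 0.0346). For FT5a the difference was -0.57 (SE 0.94, adjusted p = 0.741). FT2b passed in both contrasts (2.98, SE 0.74, adjusted p = 0.00773 early, and 2.44, SE 0.74, adjusted p = 0.0245 over the series, where 14.5% were called), but no difference in its rise can be read from them. Its first stage was at the limit of detection in both organs, so each early rise is only a bound (at least 11.7-fold in leaf and 1.08-fold in cotyledon), it had no read at either C-I or C-III, and it was tested in cotyledon through C-II alone. The differences for FT2a and FT5a were 1.26 (SE 0.69, adjusted p = 0.237) and 1.42 (SE 0.94, adjusted p = 0.339). These values depend on the pseudocount because the C-I libraries held at most 1 FT read: with a pseudocount of 5 FT2a lost its early call (-0.83, adjusted p = 0.370) and FT2b the call over the series (1.10, adjusted p = 0.130), and with 0.1 FT2b lost its early call (2.41, adjusted p = 0.211). Calls were also gained, by FT5a for the early step with 0.1 (-3.80, adjusted p = 0.0244) and by FT2a over the series with 5 (2.66, adjusted p = 0.00268). Without L-I replicate 3, L-V replicate 2 or L-V replicate 3 the FT2b difference over the series was also lost (adjusted p = 0.0559, 0.0630 and 0.0739), and without L-I replicate 2 those of FT5a (2.69, adjusted p = 0.00414) and FT2a (1.98, adjusted p = 0.0240) passed.

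Replicates of a stage differed in several members at once. At L-V, replicate 1 had the most FT3a, FT3b, FT2a and FT5b and the least FT5a and FT2b of the 3 libraries. It also had the least rubisco small chain, 387 normalized counts against 1033 and 1936. At L-II, replicate 3 had the least FT2a and FT5a and the least rubisco small chain. At L-I, replicate 2 had the most FT2a and FT5a, and 1810 normalized counts of Glyma16g28070.1, annotated as light-harvesting chlorophyll-protein complex II subunit B1, against 3987 and 5152. Rubisco small chain did not set that library apart, with 7331, 6739 and 6758 normalized counts in L-I replicates 1, 2 and 3. Whether leaves of one stage differed in age or state was not tested. The calls of FT2a, FT2b, FT5a and FT5b from L-I to L-II were each kept in all 15 fits that left out 1 leaf library.

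Among the transcripts with a mean of at least 10 normalized counts, FT3b and FT3a were close to each other over the 15 leaf libraries (Pearson r = 0.97). FT3b stood at rank 12 among the 30485 transcripts when ordered by likeness to FT3a, and FT3a at rank 20 for FT3b. FT2b and FT5a had r = 0.91, at rank 37 for FT2b and rank 39 for FT5a. FT2a was most like FT5b (0.83) and FT2b (0.79) within the family, at ranks 1029 and 1571. FT5b was closest to FT3b (0.87). FT5a and the FT3 pair had r of 0.10 and 0.09. These values describe libraries that share stages and depth, and no test is attached to them.

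The transcripts most like each member in leaf came from varied annotations. For FT2a these were Glyma14g39930.1 (alpha-amylase-like 2, r = 0.99), Glyma09g15450.1 (MLP-like protein 34, 0.98), Glyma20g32570.1 (0.97), Glyma18g07090.2 (RING/U-box protein, 0.97) and Glyma15g39150.1 (a cytochrome P450 of family CYP72A, 0.97). For FT5a they were Glyma10g38960.1 (0.96, annotated by its Arabidopsis match ARD4), Glyma06g00800.3 (0.95), Glyma09g25056.1 (NAD(P)-binding Rossmann-fold protein, 0.95), Glyma05g05750.2 (chloroplast beta-amylase, 0.95) and Glyma07g37410.1 (ethylene-responsive element binding protein, 0.94). For FT2b they were Glyma04g38691.1 (alpha/beta-hydrolase, 0.97), Glyma01g25890.1 (major facilitator protein, 0.97), Glyma01g09160.1 (UDP-glycosyltransferase, 0.96), Glyma02g04660.1 (0.95) and Glyma10g21570.1 (remorin, 0.94).

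The FT3 pair shared 2 of its 5 closest transcripts, Glyma14g13884.1 (a protein kinase) and Glyma18g05260.1. The other 3 were Glyma11g09880.1 (0.99), Glyma17g07470.2 (0.98) and Glyma06g15010.2 (AZA-guanine resistant1, 0.97) for FT3a. For FT3b they were Glyma14g36531.1 (DUF3133 protein, 0.99) and both transcripts of Glyma06g46450 (cellulose synthase-like B4, 0.98 each). For FT5b they were Glyma13g22200.1, Glyma15g11430.1, Glyma11g09690.1 (farnesylated protein 6), Glyma13g37543.1 and Glyma04g42240.1, all at r of 0.97. In cotyledon, where only FT2a and FT5a reached a mean of 10, the closest over 9 libraries were Glyma18g16720.1 (0.997), Glyma05g29740.1 (RimM family rRNA processing protein, 0.995), Glyma19g41090.1 (glycosyl hydrolase, 0.992), Glyma17g09500.1 (0.992) and Glyma18g48730.1 (0.991) for FT2a. For FT5a they were Glyma10g11100.2, Glyma18g02260.1, Glyma09g08300.1, Glyma13g44180.1 and Glyma05g30950.1, at r of 0.984 to 0.995. FT2a and FT5a had r = 0.88 with each other there.

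Other loci of the PEBP family were looked at beside the 6. Of 10 listed, 8 were in the tables with 11 transcripts, and 3 transcripts were tested in leaf and 5 in cotyledon. Glyma08g47816.1 and Glyma08g47823.1, neighbouring loci annotated as PEBP family proteins, took a course in leaf that began with that of FT2a. Glyma08g47816.1 had no read at L-I, then 150.4, 83.6 and 11.8 normalized counts at L-II. It had 204, 112 and 198 at L-III, 149.8, 194 and 196.5 at L-IV, and 87.3, 130.5 and 122 at L-V. Glyma08g47823.1 had 1 read at L-I, 137, 80.0 and 12.5 normalized counts at L-II, 237, 132 and 259.8 at L-III, 155, 208.5 and 211 at L-IV, and 62.4, 176 and 118 at L-V. For both, L-II replicate 3 was far below its fellow L-II libraries and every later library was higher than it. They were at least 16.8-fold and 15.7-fold higher at L-II than at L-I (log2 fold changes 5.77, SE 0.61, and 5.09, SE 0.70, adjusted p = 9.98e-06 and 0.000108). Neither passed in any later step or from L-III to L-V. The list as a whole had 2 of 3 transcripts risen from L-I to L-II in leaf, where 14.7% of all tested transcripts were called and 5.02% rose. In cotyledon 2 of its 5 tested transcripts were called as risen from C-I to C-II and 1 as fallen, where 25.4% of all were called. Each of these reached the filter only through the stage where it was high. That stage was C-II for Glyma08g47816.1 and Glyma08g47823.1 and C-I for Glyma03g35250.1, so this count is a description only. In cotyledon Glyma08g47816.1 and Glyma08g47823.1 had 10.9, 6.98 and 5.31, and 0, 7.80 and 10.6 normalized counts at C-II, and no read at C-I or C-III.

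**Figure D5:**
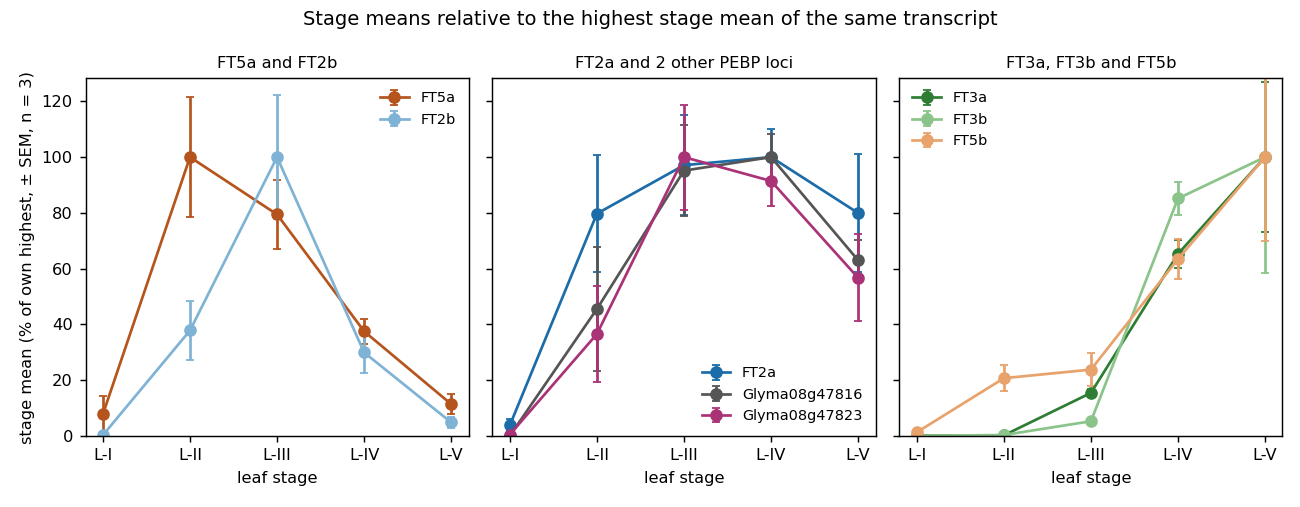
Stage mean in leaf as a percentage of the highest stage mean of the same transcript (± SEM, n = 3), by stage. FT5a is highest at L-II and FT2b at L-III, FT2a and the PEBP loci Glyma08g47816 and Glyma08g47823 at L-III or L-IV, and FT3a, FT3b and FT5b at L-V.

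Loci placed around FT in the flowering pathway from general knowledge were taken as lists, since no source used here pairs these IDs with gene names. Of 13 loci placed upstream of FT (photoperiod and clock regulators and phytochromes), 15 of 17 transcripts were tested in cotyledon and 14 in leaf. In cotyledon 2 rose and 8 fell from C-I to C-II (5 of the 8 from 1 locus, Glyma04g05280, median change -1.69 beside -0.07 over all tested), where 25.4% of all were called. From C-II to C-III 8 rose, 5 of them again transcripts of Glyma04g05280, and 2 fell (median 1.57 beside 0.01), where 8.58% of all were called. In leaf 0 of 14 passed in limma, and 0 in limma-voom, from L-I to L-II, L-II to L-III, L-III to L-IV or L-IV to L-V, with 4, 1, 6 and 2 at an unadjusted p below 0.05. In these steps 14.7, 1.92, 2.54 and 0.0491% of all tested transcripts were called, so that 0 of 14 was near the share over all in the last 3. From L-III to L-V 1 of the 14 rose and 1 fell, where 5.9% of all were called. From L-I to L-V 2 rose and 2 fell, where 31.1% of all were called.

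Of 11 loci placed downstream of FT (regulators of flowering), 6 were those of the flower and shoot apex list, and no transcript of those 6 was tested in either organ. Of the 13 transcripts of the 11 loci, 3 were tested in cotyledon. There 2 rose from C-I to C-II (25.4% of all called) and 3, from 2 loci, rose from C-I to C-III (30.8% of all called). In leaf 7 were tested, of which 1 rose from L-I to L-II, where 14.7% of all were called. From L-I to L-V 3 fell, 2 of them transcripts of 1 locus, Glyma18g50910, where 31.1% of all were called (median -0.02 beside -0.0040 over all tested). From L-II to L-III, L-III to L-IV, L-IV to L-V and L-III to L-V 0 of 7 passed in limma or limma-voom, and 0 had an unadjusted p below 0.05. Of all tested transcripts 1.92, 2.54, 0.0491 and 5.9% were called in these comparisons, so that 0 of 7 was near the share over all. The 1 locus placed as the FD partner rose from L-III to L-V (1.68, SE 0.31, adjusted p = 0.00423) and passed in no single step.

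The neighbours of the tandem pairs by locus number were looked at in the same way. Over all tested transcripts, 41.4% were called in some pair of leaf stages and 37.7% in some pair of cotyledon stages. Around FT2a and FT2b, 6 of 9 tested neighbour transcripts were called in some leaf pair and 3 of 9 in some cotyledon pair. Of the 2 loci numbered between FT2a and FT2b, Glyma16g26671.1 was measured at 38.7 to 119 normalized counts in every leaf library and passed in none of the 10 pairs of leaf stages or the 3 of cotyledon. Glyma16g26681.1 was at or below 0.801 in leaf and was not tested. Outside that pair, Glyma16g26650.1 and Glyma16g26710.1 fell from L-I to L-II (-4.62 and -4.84), where FT2a and FT2b rose, and Glyma16g26700.6 rose there with them (1.65, adjusted p = 0.0423). Around FT5a and FT3a, 1 of 2 tested neighbour transcripts was called in any leaf pair, Glyma16g04850.1, which fell from L-III to L-V (-2.21, adjusted p = 0.0491), and 2 of 4 were called in some cotyledon pair. Around FT3b and FT5b, 0 of 5 tested neighbour transcripts were called in limma or limma-voom in any pair of leaf or cotyledon stages, with 3 and 1 at an unadjusted p below 0.05 in some pair.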

How the data were processed

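RNA of cotyledons and leaves was sequenced by the authors, leaves on 1 lane and cotyledons on another instrument. The cotyledon libraries were run 3 to a lane. Which libraries shared a lane is not given, so lane and cotyledon stage may not be separable. Per the study's methods, reads were aligned with Bowtie (version not given in the sources used here) to the Gmax_189 transcripts with 1 mismatch allowed, reads with several hits were discarded, and counts were scaled with DESeq size factors (version 1.0 in the submitters' processing notes). The 2 tables deposited by the authors, 1 per organ, hold variance-stabilized log2 values, which was read from the values themselves. The tests had been planned for normalized counts, so the values were converted back. The inverse transform gave whole reads for 100% of the values checked (tolerance 0.05 reads), and the highest read counts were left out of that check. In all, 0 columns were left unmatched to a sample.

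Stages were compared within an organ with limma 3.58.1 (R 4.3.3, intensity trend, no replicate block) on log2(normalized count + 1), over all transcripts with 10 or more reads over all replicates of some stage. Fold changes on that scale understate changes of low transcripts. P-values were adjusted by Benjamini-Hochberg over all transcripts of a comparison, and a call needed an adjusted p below 0.05 and a log2 fold change above 1.5 in size. Changes were compared between organs in 1 fit of all 24 libraries. A stage with at most 3 reads in every library, or with a mean below that limit, was set to 3 reads per library for fold bounds. The steps were tested on simulated data. Alternatives were pseudocounts of 0.1 and 5, other filters, scaling to total reads, the deposited log2 values, limma-voom, locus sums, the replicate block, the adjusted p alone, and leaving out each library. No 2 replicates agreed within sampling noise.

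The rule for named genes took the 6 members, the 5 transcripts most like each member with a mean of at least 10 normalized counts (Pearson r), fixed lists of PEBP, upstream, partner and downstream loci, and the loci beside the members. The members and lists were chosen with earlier results of these data known. Gene annotations come from the study's supplementary text. Python 3.11.15 was used for descriptions.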

Additional observations from a re-analysis of the deposited data

Results flagged for a closer look

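For 3 tissue differences the test of the difference between leaf and cotyledon passed in limma fitted over all transcripts. For FT2a from the youngest to the next stage, leaf less cotyledon was -2.61 on the log2 scale (SE 0.69, adjusted p = 0.0125). FT2a was at the limit of detection at C-I, so its cotyledon rise is only a bound, and whether the leaf rise was the smaller cannot be read. For FT2b the values were 2.98 for the same step (SE 0.74, adjusted p = 0.00773) and 2.44 from the youngest to the oldest stage (SE 0.74, adjusted p = 0.0245). FT2b began at the limit of detection in both organs and had no read at C-I and C-III, so its changes are bounds and no difference in rise can be read. The value over the series was no longer called with a pseudocount of 5 (1.10, adjusted p = 0.130) or without L-I replicate 3, L-V replicate 2 or L-V replicate 3. All leaf libraries of L-II lay above those of L-I for both transcripts, and all cotyledon libraries of C-II above those of C-I for FT2a. For FT2b the order in cotyledon is a description only, since it was tested there through C-II alone. Its C-II replicate 1 held 1 read, below the limit of detection. The 3 tissue differences rest on C-I libraries with at most 1 FT read and move with the pseudocount, and organ, instrument and growth conditions cannot be told apart.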

How the results depend on the processing

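The number of FT transcripts called was 6 in leaf under all 10 other settings and with any 1 library left out. In cotyledon it was 3, but 2 with a pseudocount of 5, with a filter of a mean of at least 10, and without C-II replicate 2 (2 to 3 over the libraries left out). The cotyledon count is a description only, since FT2b and FT5a reached the filter through C-II alone. Over all tested transcripts, 41.4% were called in some pair of leaf stages and 37.7% in some pair of cotyledon stages. For the tissue difference the number of FT transcripts called was 2, but 3 with a pseudocount of 0.1 and with no filter, 1 with a filter of a mean normalized count of at least 10, and 1 to 3 with 1 library left out (1 without C-II replicate 2). With a replicate block it stayed at 3, 6 and 2, and no call of a member changed. The replicate numbers did not pair the samples: the correlation of deviations of same-numbered libraries was -0.08 to 0.07 over 9 cotyledon pairs and -0.20 to 0.20 over 30 leaf pairs. Of 1208 recomputed single changes 1162 kept their direction and side of the threshold. Values that turned sign were uncalled in every case. They were FT2a over the series between tissues (-1.08 with a pseudocount of 0.1), FT5a early between tissues (1.40 with a pseudocount of 5, 0.029 on the deposited values, -1.31 to 0.70 with 1 library left out, while with a pseudocount of 0.1 it kept its sign and was called, -3.80, adjusted p = 0.0244), FT3b from L-IV to L-V (0.061 with scaling to total reads, -0.57 to 0.49 with 1 library left out) and FT3a from L-I to L-II (-0.032 in limma-voom). With 1 library left out, FT2a ranged over -0.061 to 0.66 from L-II to L-III, -0.21 to 0.26 from L-III to L-IV and -0.66 to 0.021 from L-III to L-V, and FT5b over -0.11 to 0.49 from L-II to L-III. FT2b from L-III to L-IV passed in limma-voom (-1.73, adjusted p = 0.0452) and with a pseudocount of 5 (-1.62, adjusted p = 0.0406). The cause was not tested. Scaling to total reads put the median of all transcripts at up to 0.252 (L-I to L-V, against -0.0040) and changed no call of a member.

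A stage with no read in 3 libraries allows 0.102 to 0.133 per 1e+06 counted reads in cotyledon and 0.195 to 0.265 in leaf, and cotyledon FT2b at C-II (1 to 14 reads per library) and leaf FT5b at L-II and L-III (4 to 13) rested on few reads.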
